A study of Rattus norvegicus with 10 samples.

Results

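Oxidative phosphorylation is carried out by large protein complexes of the inner mitochondrial membrane, and 88 genes of the rat array whose symbols name a subunit of complexes I to V, or a protein that helps to build them, are described here. They were chosen by the start of the symbol (Nduf, Sdha to Sdhd, Uqcr, Cox4 to Cox8 and Atp5) among probe sets with exactly 1 gene symbol, with Cox6a2 and Cox8b, the striated muscle forms, left out and the brightest probe set kept for each gene. The 88 genes stood among 14217 genes with a single symbol and were read by 99 probe sets, 10 of the genes by more than 1. Once the dimmest 40% of probe sets were left out, 85 of the 88 were kept, of 10839 genes in all. The 3 dim ones were Cox7a1 and Cox7b2, tissue-restricted forms of complex IV subunits, and the pseudogene Cox6c-ps1.

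The tumours were mammary tumours of female Sprague-Dawley rats, raised by 1 oral dose (100 mg/kg) of the carcinogen 7,12-dimethylbenz(a)anthracene. The final samples came from 5 of them when the animals were killed at 19 weeks of age, after 6 weeks of hydroxytyrosol, a phenol of olive oil, given by mouth 5 times weekly at 0.5 mg/kg. The basal samples were Trucut needle biopsies of the same 5 tumours at 12 weeks of age, taken at a tumour volume of 2 cm3 and before any treatment. The tumours, labelled 66D2, 67D3, 45D3, 49I1 and 51I1, had been picked for a Bloom-Richardson grade of II, and no untreated tumours of 19 weeks were analysed here, so treatment, age, growth and sampling cannot be told apart in any difference between final and basal samples. The sample labels call the final piece total tumour and the design text calls it a Trucut sample. Nothing in the labels says that the 5 tumours came from 5 animals. The p-values, where each tumour is paired with itself, therefore measure how the final minus basal change varied between these tumours.

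As background, complexes I and II pass electrons from NADH and succinate to ubiquinone, complex III passes them on to cytochrome c and complex IV to oxygen. Complexes I, III and IV pump protons while doing so, and complex V, the ATP synthase, uses the returning protons to make ATP. Most subunits are encoded in the nucleus and a few in mitochondrial DNA, and the transcription factors NRF-1, GABP (also called NRF-2) and YY1 are known regulators of many of the nuclear genes.

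Motifs of those 3 factors were looked for in the promoters because the genes described below moved together within a tumour. RefSeq (assembly GRCr8) gave a promoter of 300 bases, from 250 before to 50 after the transcription start, for 80 of the 88 genes and for 27457 genes in all. The NRF-1 motif searched was GCGCNTGCG, the GABP motif CCGGAAG and the YY1 motif AAGATGG, each on both strands, and none of the 3 contains another. The NRF-1 motif was present in 22 of the 80 promoters (27.5%) and in 6.52% of all promoters. The GABP motif was present in 25 (31.2%) and in 9.63% of all, and the YY1 motif in 20 (25%) and in 7.77% of all. At least 1 of the 3 was present in 53 of the 80 (66.2%), against 21.0% of all promoters. A match is a string of letters and not a binding site, and a link between the motifs and the movement of the genes was not tested. All promoters means those of every gene with one, not matched to the 80 for expression or base content. The counts took in matches on either side of the transcription start, and the stretches below only matches wholly before it. For YY1, matches wholly before the start were found only in Atp5me, Atp5pf, Cox6b1 and Uqcrc2. Most of the 20 promoters counted for YY1 therefore had their match at or after the start. The 6 stretches of 60 bases below show 1 match in each complex and 1 in the assembly factor gene Ndufaf4, which comes up again among the results. They were picked after the matches and the values had been seen, each is written 5′ to 3′ on the strand of the gene, and capitals mark 1 match of the named motif or its reverse complement. The Atp5pf stretch also ends in a GABP match left in lower case, and the reverse complement of the NRF-1 motif overlaps the marked match of Ndufaf4.
Ndufs1, complex I, GABP, chr9:72073771-72073830, minus strand: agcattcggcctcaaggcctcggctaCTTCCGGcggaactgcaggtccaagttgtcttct
Sdha, complex II, NRF-1, chr1:30764440-30764499, plus strand: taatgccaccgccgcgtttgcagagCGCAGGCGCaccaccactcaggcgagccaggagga
Uqcrc2, complex III, GABP, chr1:184599097-184599156, plus strand: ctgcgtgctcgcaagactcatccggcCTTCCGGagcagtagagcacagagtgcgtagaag
Cox5b, complex IV, GABP, chr9:46417777-46417836, plus strand: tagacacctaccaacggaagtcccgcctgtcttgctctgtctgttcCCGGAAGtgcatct
Atp5pf, complex V, YY1, chr11:37375179-37375238, minus strand: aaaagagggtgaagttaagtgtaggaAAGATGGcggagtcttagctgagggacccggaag
Ndufaf4, assembly of complex I, NRF-1, chr5:43401612-43401671, plus strand: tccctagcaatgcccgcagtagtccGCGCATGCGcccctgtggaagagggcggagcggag

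Most of these genes gave bright and even signals. Signals are RMA values (Robust Multichip Average) on the log2 scale, where a difference of 1 is a doubling, and they compare a gene between samples and not one gene with another. Of the 85 kept genes, 63 were above 10 in all 10 arrays and 77 had a mean above that of BioB, the faintest spiked control, at 7.97. The median SD between tumours was 0.17 in final and 0.16 in basal samples, against 0.24 in final and 0.25 in basal samples over all kept genes. All kept genes were not matched to the 85 for brightness (median final signal 8.21, against 10.91 for the 85). By position the genes were spread over 20 chromosomes, with at most 16 on one, so they are not a single neighbourhood of the genome. Cox7a2, the widely expressed partner of Cox7a1, was not measured by a probe set with a single symbol. Cox5a was read by a faint probe set (mean 7.37 over the 10 arrays), since a bright one carries several symbols and was not used.

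Averaged over the 5 tumours, the genes of oxidative phosphorylation differed little between final and basal samples. Of the 85 kept genes, 48 had a higher mean in final samples (47.9% of all kept genes did) and 37 a lower one (52.1%), with a median difference of 0.01 (-0.01 once each array was centred on its median), against -0.01 over all kept genes. None passed an adjusted p of 0.05 in limma with the tumour as a block and Benjamini-Hochberg adjustment over 18625 probe sets, as was the case for all probe sets (0.0%). The smallest adjusted p among them was 0.556 in limma. At an unadjusted p under 0.05 there were 0 higher (2.78% of all kept genes) and 2 lower (4.36% of all kept genes), Cox6b2 and Ndufaf4, and together these were 2.35% of the 85, below the 7.14% of all kept genes. Neither direction held a gene whose final and basal values did not overlap, against 0.111% of all kept genes for higher and 1.09% for lower. The methods' paired t-test gave 1 higher at that threshold, Ndufb4 (2.75% of all kept genes), and 1 lower, Cox6b2 (4.75%). Without 45D3 limma gave 0 higher (8.5% of all kept genes) and 6 lower (10.7%), the others being Cox4i2, Uqcrc2, Ndufaf1 and Ndufaf5.

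The intervals were narrow. For each of the 70 subunits proper the 95% interval of the difference lay between -0.47 and 0.47, or 1.39-fold in either direction. The subunits proper leave out the assembly factors, the ATP synthase inhibitor and the tissue-restricted forms. Each interval is that of 1 gene in the main fit, so the 70 together are not bounded at 95%. Over the 85 kept genes, 79 intervals stayed within 0.5 of 0, against 61.1% of all kept genes, which again were not matched for brightness. Differences of subunits ran between -0.13 for Uqcrc2 and 0.19 for Ndufa13 and Ndufb10.

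**Figure D1:**
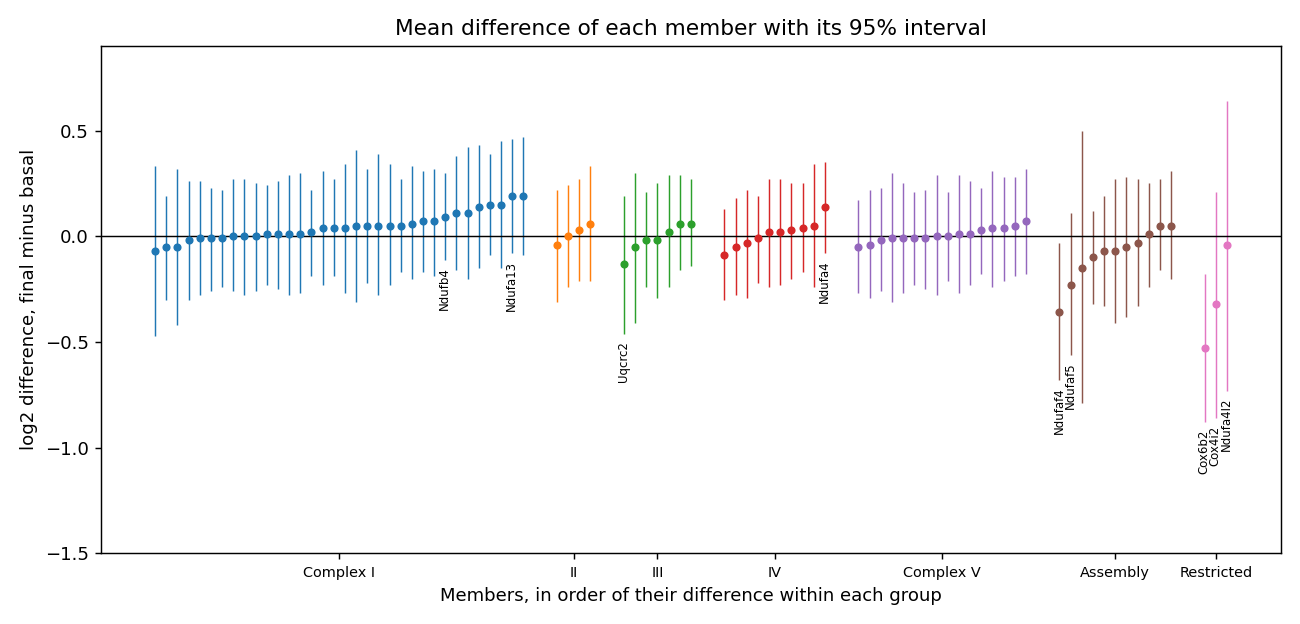
Mean difference, final minus basal, on the log2 scale (vertical axis) of each of the kept genes with its 95% interval from limma, grouped by complex along the horizontal axis and ordered by difference within a group. The ATP synthase inhibitor Atp5if1 is drawn among the genes of complex V. The intervals of Cox6b2 and Ndufaf4 lie below 0, and every subunit of complexes I to V has an interval that includes 0.

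Complex I takes electrons from NADH, and its 34 measured subunits had a median difference of 0.04, with 25 higher and 9 lower. Ndufs1, the large iron-sulfur subunit of its catalytic arm, had signals of 10.35 (66D2), 9.77 (67D3), 10.35 (45D3), 9.95 (49I1) and 10.11 (51I1) in the final samples. In the basal samples it had 10.58, 9.93, 9.79, 10.38 and 10.09 in the same order of tumours. The groups overlapped, and the only clear gain was in 45D3, whose biopsy was the dimmest of the basal samples. Its mean difference was -0.05 ± 0.15 (SE, n = 5 tumours; adjusted p = 0.945 in limma). Over the 6 measured core subunits the median difference was 0.05, and in 45D3 it was 0.45.

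Ndufa13, a subunit also known as GRIM-19, had the smallest p of the subunits. Its final signals were 10.92, 10.70, 10.89, 10.59 and 10.75 in 66D2, 67D3, 45D3, 49I1 and 51I1, against 10.67, 10.42, 10.39, 10.67 and 10.74 in the basal samples. It was higher in 4 of the 5 final samples and lower in 49I1, with a mean difference of 0.19 ± 0.11 (SE, n = 5; adjusted p = 0.692 in limma). Ndufb4, in the membrane arm, was higher in all 5 final samples, with a mean of 11.84 ± 0.07 in final and 11.75 ± 0.10 in basal samples (SD, n = 5 each), a difference of 0.09 (adjusted p = 0.795 in limma). Ndufab1, the mitochondrial acyl carrier protein, had the largest SD of the differences among the subunits, 0.42: its final signals were 11.74, 10.92, 11.55, 11.20 and 11.15, against basal signals of 11.81, 11.0, 10.93, 11.57 and 11.60, in the same order. It was therefore higher in 45D3 and lower in the other 4. Ndufs3 (mean difference 0.05), Ndufv1 (0.05) and Ndufv2 (0.14), other core subunits, had adjusted p-values of 0.919, 0.909 and 0.788 in limma.

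Complex II, succinate dehydrogenase, belongs to the citric acid cycle as well as to the chain, and is encoded wholly in the nucleus. Its 4 subunits had a median difference of 0.02. Sdha, the flavoprotein that oxidises succinate, had final signals of 10.90, 10.40, 10.95, 10.67 and 10.79 in 66D2, 67D3, 45D3, 49I1 and 51I1, against 10.94, 10.58, 10.65, 10.68 and 10.70 in the basal samples. The groups overlapped, with 45D3 showing the clearest gain and 67D3 the clearest loss. Its mean difference was 0.03 ± 0.10 (SE, n = 5; adjusted p = 0.951 in limma). The iron-sulfur subunit Sdhb differed by 0.06, and of the membrane anchors Sdhc had the same mean of 10.74 in final and basal samples and Sdhd differed by -0.04. A second probe set for Sdhd gave -0.02.

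Complex III had 7 measured subunits with a median difference of -0.02, 3 higher and 4 lower. Uqcrfs1, the Rieske iron-sulfur protein, had final signals of 11.80, 11.14, 11.73, 11.28 and 11.52 in 66D2, 67D3, 45D3, 49I1 and 51I1, against 11.80, 11.30, 11.22, 11.78 and 11.63 in the basal samples. It was even in 66D2, higher by 0.50 in 45D3 and lower by 0.49 in 49I1, and its mean difference was -0.05 (adjusted p = 0.941 in limma). Uqcrc2, a core protein, had the lowest difference of any subunit at -0.13 ± 0.13 (SE, n = 5; adjusted p = 0.814 in limma), but its second and dimmer probe set gave 0.13, so its direction depends on the probe set. Uqcrc1, the other core protein, differed by 0.02, and the small subunits Uqcr10 and Uqcr11 each by 0.06.

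Complex IV, cytochrome c oxidase, has a catalytic core made by mitochondrial DNA, surrounded by nuclear subunits. The 10 widely expressed nuclear ones had a median difference of 0.02, 6 higher and 4 lower. Ndufa4, named for complex I but known as a component of complex IV, was higher in all 5 final samples. Its final signals were 12.05, 11.87, 12.37, 12.20 and 12.08 in 66D2, 67D3, 45D3, 49I1 and 51I1, against 11.97, 11.75, 12.04, 12.18 and 11.95 in the basal samples. The gain was small outside 45D3 and the groups overlapped, with a mean difference of 0.14 ± 0.09 (SE, n = 5; adjusted p = 0.724 in limma). Among all 85 genes, 2 were higher in all 5 tumours, Ndufa4 and Ndufb4 (3.52% of all kept genes were), and 1 was lower in all 5, Cox6b2 (5.27% of all kept genes were).

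Cox4i1, the common form of a regulatory subunit, averaged 12.72 ± 0.12 in final and 12.67 ± 0.04 in basal samples (SD, n = 5 each). Cox5b, another nuclear subunit, averaged 11.32 ± 0.16 in final and 11.27 ± 0.15 in basal samples (SD, n = 5 each). The faint probe set of Cox5a gave 7.35 ± 0.30 in final and 7.39 ± 0.30 in basal samples (SD, n = 5 each). The paired differences averaged 0.04 for Cox4i1, 0.05 for Cox5b and -0.05 for Cox5a. The SDs of these differences over the 5 tumours were 0.09, 0.26 and 0.14.

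Complex V, the ATP synthase, had 15 measured subunits with a median difference of 0.00, 8 higher and 7 lower. Atp5f1a, the alpha subunit of the catalytic head, had final signals of 12.12, 11.55, 12.07, 11.83 and 11.96 in 66D2, 67D3, 45D3, 49I1 and 51I1, against 12.19, 11.65, 11.64, 12.05 and 11.98 in the basal samples. Only 45D3 was higher at the end. The means were 11.91 ± 0.23 in final and 11.90 ± 0.25 in basal samples (SD, n = 5 each). Atp5f1b, the catalytic beta subunit, differed by -0.05, and Atp5f1c, the central stalk, by 0.04. The 4 subunits of the peripheral stalk, which holds the head still, all had a higher mean, between 0.01 and 0.07, with Atp5pf at 0.07 and Atp5pd at 0.05. Of the 6 in the membrane part, 5 had a lower mean. Atp5if1, the inhibitor that blocks the enzyme from running backwards, differed by -0.01 but was higher by 0.39 in 45D3 and lower by 0.31 in 49I1.

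Between complexes the medians thus lay between -0.02 for complex III and 0.04 for complex I. Within each complex the medians of single tumours lay much further apart than that, for complex I between -0.13 and 0.33 and for complex III between -0.27 and 0.23. The differences between complexes were smaller than the spread between tumours in every complex, and their order is not stable: with the muscle signal as a covariate the medians were 0.03 for complex I, 0.12 for II and 0.08 for III, and with the hexokinase gap as a covariate that of complex I was -0.10.

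**Figure D2:**
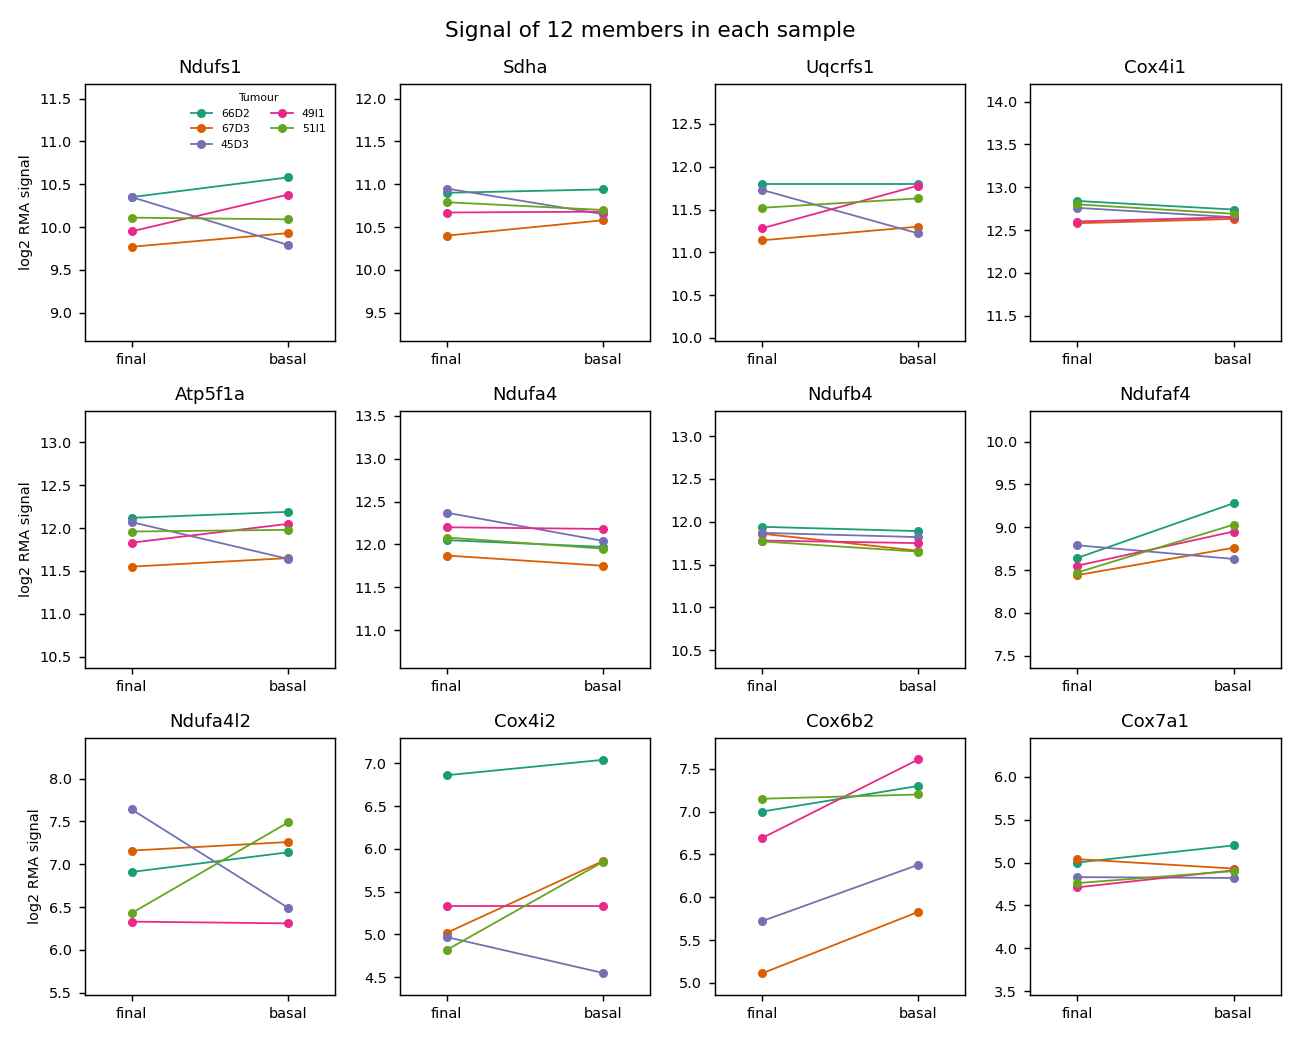
Log2 RMA signal (vertical axis, 3 log2 units in each panel) of 12 genes in the final and the basal sample of each tumour, with a line joining the samples of a tumour. Ndufs1, Uqcrfs1 and Atp5f1a are higher in the final sample of 45D3 only or nearly so, Ndufa4 and Ndufb4 are slightly higher in all 5, and Cox6b2 is lower in all 5.

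The genes differed more by tumour than by moment, and most of them moved together within a tumour. Of the 70 subunits, 68 were higher in the final sample of 45D3, with a median difference of 0.28, whereas 54.2% of all kept genes were higher there, with a median of 0.04. In 49I1 only 6 of the 70 were higher, with a median of -0.13 (42.7% of all kept genes, median -0.05). In 51I1 17 of the 70 were higher, with a median of -0.11 (40.8% of all kept genes, median -0.08). In 66D2 the count was 46 and the median 0.03 (53.8%, median 0.03), and in 67D3 it was 40 and 0.04 (47.2%, median -0.02). The 5 complexes shared these directions in 45D3 and 49I1: in 45D3 the medians were 0.33 for complex I, 0.29 for II, 0.23 for III, 0.17 for IV and 0.27 for V, and in 49I1 they were -0.13, -0.14, -0.27, -0.12 and -0.14. In 51I1 complexes I, III, IV and V had negative medians and complex II had 0.02.

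Counted gene by gene, 60 of the 70 subunits had their highest difference in 45D3, as did 36.4% of all kept genes. Another count gave 49 of the 70 as higher in 45D3 and lower in both 49I1 and 51I1, against 31.3% of all kept genes. Among the 85 genes, 49 were higher by over 0.25 in 45D3 (27.7% of all kept genes) and 1 was lower by as much (24.6%). In 49I1 none was higher (17.2%) and 18 were lower (24.9%), and in 51I1 none was higher (20.2%) and 12 were lower (29.0%), so the lower genes of these tumours were a smaller share of the 85 than of all kept genes. In 67D3 8 were higher (21.7%) and 8 lower (24.6%), and in 66D2 1 was higher (25%) and 2 were lower (16.7%). These shares describe 5 tumours, and the genes of one array are not independent of each other.

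**Figure D3:**
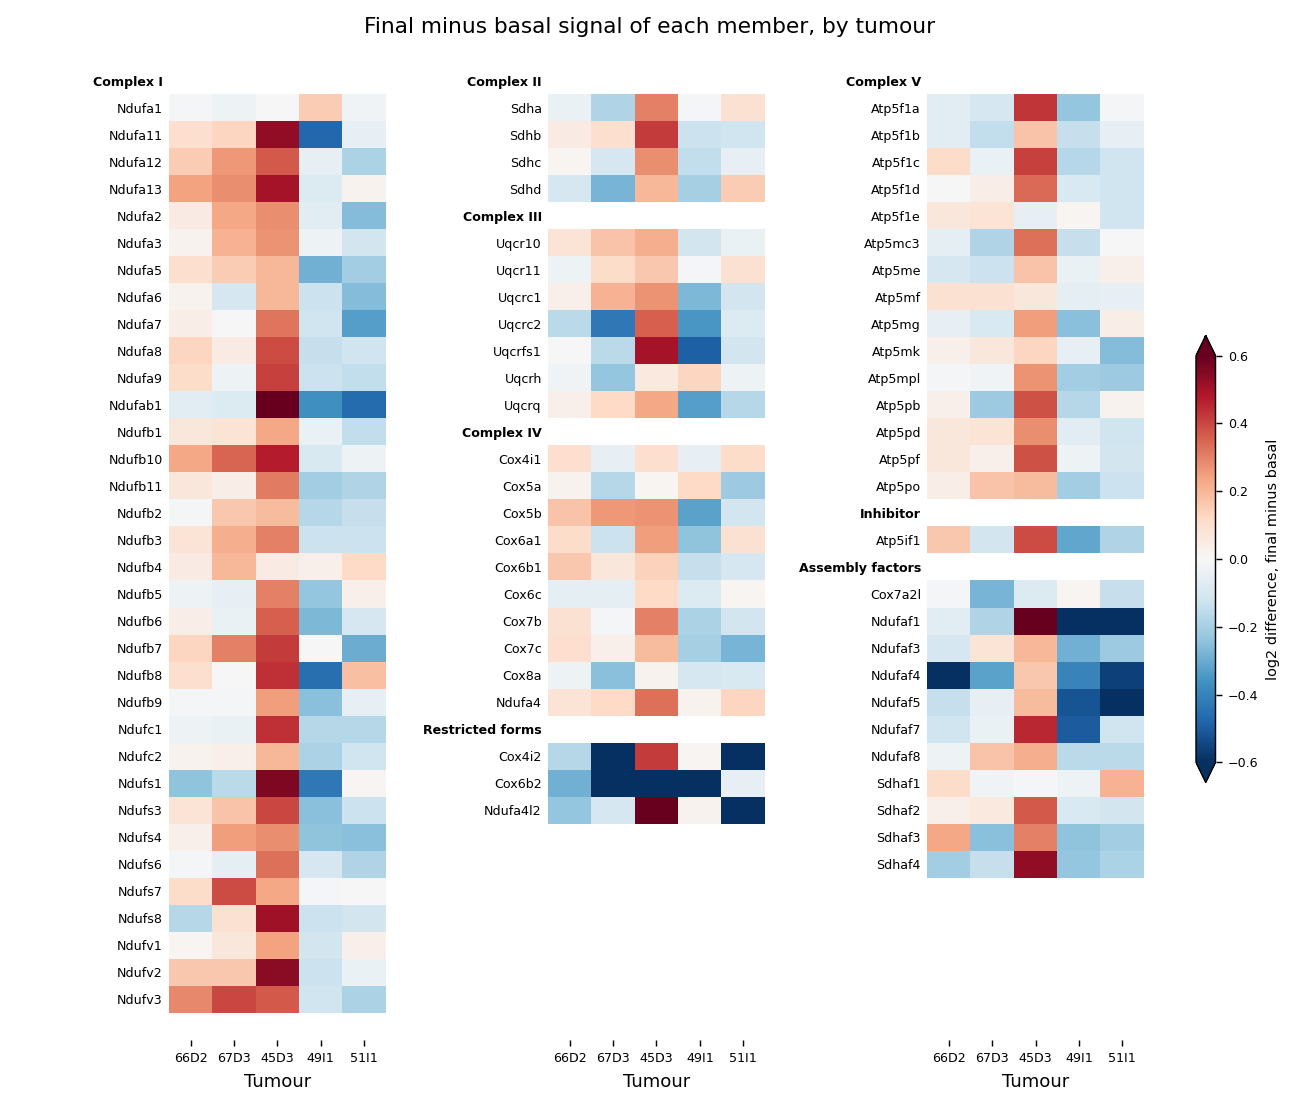
Difference, final minus basal, on the log2 scale (colour, red higher in the final sample and blue lower, saturated at 0.6) of each of the 85 kept genes (rows, by complex and role) in each tumour (columns). The column of 45D3 is red in nearly every subunit and that of 49I1 mostly blue, in all 5 complexes.

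Set against each gene's own mean over the 10 arrays, the subunits were high or low in the same tumour at both moments in 2 cases. The median deviation of the 70 subunits in 66D2 was 0.20 in the final and 0.13 in the basal sample, and in 67D3 it was -0.13 in the final and -0.17 in the basal sample. Tumour 45D3 changed sides, at 0.16 in the final and -0.15 in the basal sample. The deviations in 49I1 were -0.09 in the final and 0.03 in the basal sample, and in 51I1 -0.03 in the final and 0.07 in the basal sample. The same medians over all kept genes stayed between -0.04 and 0.04. Some lists described below shared the sides of both tumours. In 66D2 the mitochondrial ribosome had 0.27 in both samples, protein import 0.20 final and 0.30 basal, and proliferation 0.72 and 0.95. In 67D3 they had -0.25 and -0.23, -0.24 and -0.14, and -1.93 and -0.87. The 2 measured genes of mitochondrial DNA had the opposite sides, at -0.11 and -0.10 in 66D2 and 0.08 in both samples of 67D3. Per gene, 66D2 was the highest of the final samples for 46 of the 70 subunits (25.5% of all kept genes) and the highest of the basal samples for 43 (23.2%). The final sample of 67D3 was the lowest of its group for 35 (27.7%). The lowest basal signal was that of 67D3 or 45D3 for 63 of the 70 (40.5% of all kept genes).

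**Figure D4:**
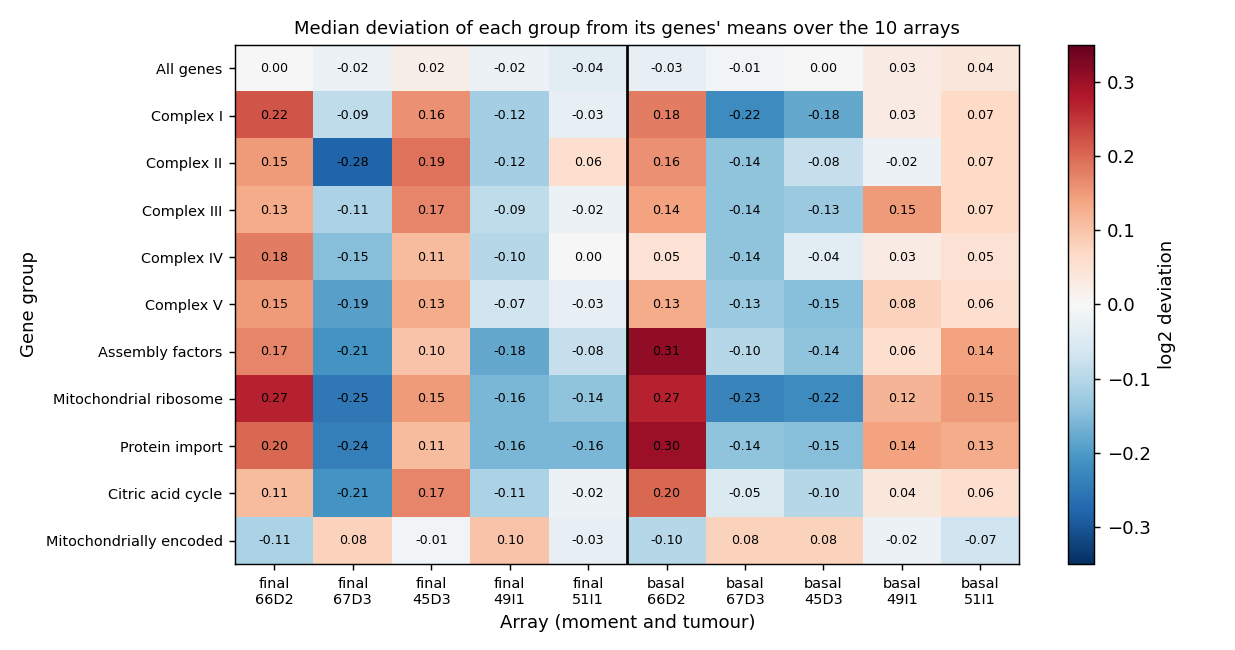
Median log2 deviation of each gene group (rows) in each array (columns, final samples left and basal samples right of the line) from the genes' own means over the 10 arrays. Complexes I to V are above their means in both samples of 66D2 and below them in both samples of 67D3, and change from below in the basal to above in the final sample of 45D3.

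Several other measures moved with this pattern in some tumours and not in others. In the biopsies of 45D3 and 67D3 the signal of the hexokinase control was higher at the 3′ than at the 5′ end by 2.36 and 2.03, against 0.89 to 1.1 in the final samples and 0.97 to 1.29 in the other 3 biopsies, a larger gap being a known sign of shorter RNA or shorter labelled product. Without 45D3 and 67D3 the median difference of the 85 genes was -0.07 and that of complex I was -0.09. The proliferation list (18 of 18 genes with a lower mean) had median differences of -0.23 (66D2), -1.08 (67D3), 0.71 (45D3), -0.76 (49I1) and -0.32 (51I1), so its sign matched that of the subunits in 45D3, 49I1 and 51I1. With the hexokinase gap as a covariate the median difference of the 85 genes was -0.09. The part of proliferation in the result was not tested. In bulk tumour samples a lower share of a cell type and less RNA per cell cannot be told apart. The luminal epithelial list, which marks the tumour cells, had a median signal of 10.85 to 11.44 in final and 11.02 to 11.30 in basal samples, with 12 of its 13 measured genes above the dim limit. Its median differences were 0.10 (66D2), 0.44 (67D3), 0.14 (45D3), -0.02 (49I1) and -0.32 (51I1). Several lists of other cell types differed more. In 45D3, where the subunits were higher, their medians were -0.90 for endothelium, -0.77 for macrophages, -0.93 for T and NK cells and -0.75 for adipocytes. In 51I1, where most subunits were lower, the same lists had 1.47, 0.99, 1.28 and 2.13. In 49I1 they had -0.16, -0.54, 1.14 and 0.15. Milk genes had -1.59 in 45D3, 0.09 in 49I1 and 2.04 in 51I1. The list of myoepithelium and smooth muscle had -0.13 (66D2), -0.71 (67D3), -0.10 (45D3), 0.42 (49I1) and 0.22 (51I1), and in 45D3 and 51I1 it differed less than the luminal list. The part of these cell types in the result was not tested.

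Skeletal muscle is rich in mitochondria, and muscle genes were far higher in 3 final samples. In the final samples the median signal of the 12 measured muscle markers was 8.72 (66D2), 11.35 (67D3), 4.56 (45D3), 7.33 (49I1) and 4.0 (51I1), against 4.01 to 4.49 in the basal samples. The 9 markers that passed the filter all had a higher mean in final samples, but 5 of them had a basal mean under the dim limit of 5.14 and passed through their final signals. Cox6a2, the muscle form of a complex IV subunit that the choice of genes left out, followed them, with final signals of 9.32, 9.97, 4.40, 7.13 and 4.08, against basal signals of 5.13, 4.17, 4.28, 4.29 and 4.44, in the same order. It was high in the final samples of 66D2, 67D3 and 49I1 and below the dim limit in all 7 other samples. The basal mean of 4.46 was under the limit, and measured against the limit in its place the difference was 1.83 (adjusted p = 0.593 in limma on the measured values). In those same 3 tumours the widely expressed subunits had median differences of 0.03, 0.04 and -0.13. Cox7a1, a muscle and heart form among the genes described here, was dim, between 4.71 and 5.04 in final and between 4.82 and 5.20 in basal samples. Of the 5 brown fat markers, another mitochondria-rich tissue, 4 were below the dim limit in every array. With the muscle signal as a covariate the median difference of the 85 genes was 0.04.

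The tissue-restricted forms replace a common subunit in particular tissues or conditions. The 3 that were kept had a median SD between tumours of 0.84 in final and 0.73 in basal samples, and all 3 had a mean below that of BioB, as only 1 of the 70 common subunits had. Cox6b2, known as a testis form of the subunit Cox6b, had final signals of 7.00, 5.11, 5.72, 6.69 and 7.15 in 66D2, 67D3, 45D3, 49I1 and 51I1, against 7.30, 5.83, 6.38, 7.61 and 7.20 in the basal samples. It was lower in all 5 final samples, by 0.05 in 51I1 at the least, while the groups overlapped because the tumours differ so much from each other. The means were 6.33 ± 0.88 in final and 6.86 ± 0.73 in basal samples (SD, n = 5 each), a difference of -0.53 ± 0.15 (SE; 95% interval -0.88 to -0.18; adjusted p = 0.556 in limma). Without the tumour as a block the unadjusted p was 0.273, and with the muscle signal as a covariate it was 0.143.

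Cox4i2, the form of Cox4 known from lung and from low oxygen, had final signals of 6.86, 5.02, 4.97, 5.33 and 4.82, against basal signals of 7.04, 5.86, 4.55, 5.33 and 5.85, in the same order of tumours. It was highest in 66D2 at both moments and near or below the dim limit in several others, and its mean difference was -0.32 ± 0.23 (SE, n = 5; adjusted p = 0.731 in limma). Ndufa4l2, a relative of Ndufa4 known as a target of the hypoxia-inducible factor HIF-1, had final signals of 6.91, 7.16, 7.64, 6.33 and 6.43, against basal signals of 7.14, 7.26, 6.49, 6.31 and 7.49. It was higher by 1.15 in 45D3 and lower by 1.06 in 51I1, with a mean difference of -0.04 and a 95% interval from -0.73 to 0.64.

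Each restricted form was also set against its common partner within each tumour. The change of Cox6b2 minus that of Cox6b1 averaged -0.56 ± 0.37 (SD, n = 5), negative in 4 of 5 tumours (two-sided exact sign-flip permutation p = 0.125, adjusted p = 0.375 over the 3 measured pairs). The change of Cox4i2 minus that of Cox4i1 averaged -0.37 ± 0.60 (SD, n = 5; exact permutation p = 0.375, adjusted p = 0.5625). For Ndufa4l2 minus Ndufa4 it averaged -0.18 ± 0.72 (SD, n = 5; exact permutation p = 0.5625, adjusted p = 0.5625). With 5 tumours this test cannot give a p below 0.0625.

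Assembly factors help to build or join the complexes, and most are not part of the finished enzymes. The 11 among the genes described here had a median difference of -0.07, with 3 higher and 8 lower. Ndufaf4, which acts in the assembly of complex I and whose promoter stretch is printed above, had final signals of 8.64, 8.44, 8.79, 8.55 and 8.47 in 66D2, 67D3, 45D3, 49I1 and 51I1, against 9.28, 8.76, 8.63, 8.95 and 9.03 in the basal samples. It was lower in 4 of the 5 final samples and higher in 45D3, and all but 1 of the final signals lay below 4 of the basal ones. The means were 8.58 ± 0.14 in final and 8.93 ± 0.25 in basal samples (SD, n = 5 each), a difference of -0.36 ± 0.14 (SE; 95% interval -0.68 to -0.03; adjusted p = 0.598 in limma). Ndufaf5, an enzyme that modifies a complex I subunit during assembly, differed by -0.23 (adjusted p = 0.705 in limma), and Sdhaf1 and Sdhaf2, assembly factors of complex II, each by 0.05. Ndufaf1, another complex I factor, had a faint signal that was higher by 1.04 in 45D3 and lower by 0.65 in 49I1 and 0.85 in 51I1. Cox7a2l, known as a factor for joining complexes into supercomplexes, differed by -0.10.

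Other genes of the same pathway were read for comparison. Of a list of 31 kept assembly factors, which shares Sdhaf3 and Sdhaf4 with the genes above, 14 were higher and 17 lower, with none higher (2.78% of all kept genes) and 2 lower (4.36%) at an unadjusted p under 0.05. These were Foxred1, a complex I factor, at -0.48 (adjusted p = 0.43 in limma) and Cox18, an inserter of a complex IV subunit, at -0.30 (adjusted p = 0.563 in limma), both lower in all 5 tumours, as were 5.27% of all kept genes. Cyc1, the cytochrome c1 of complex III that the choice by symbol does not take in, differed by -0.10, with 0.48 in 45D3. Of the 2 measured genes of mitochondrial DNA, COX1 averaged 14.06 ± 0.09 in final and 14.07 ± 0.07 in basal samples and COX2 13.97 ± 0.09 in final and 13.93 ± 0.10 in basal samples (SD, n = 5 each). Their median difference in 45D3 was -0.09, unlike that of the nuclear subunits, but both stood near the highest value in the table, 14.34, where an array may no longer follow the amount of RNA.

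Genes that make and stock mitochondria were read in the same way. The 73 genes of the mitochondrial ribosome had 21 higher and 52 lower means, a median difference of -0.05, and medians of -0.02 (66D2), -0.04 (67D3), 0.36 (45D3), -0.27 (49I1) and -0.29 (51I1). The 23 genes of protein import had 4 higher and 19 lower means and medians of -0.13, -0.09, 0.27, -0.33 and -0.26 in the same order. The 14 genes of the citric acid cycle had 6 higher and 8 lower means and medians of -0.10, -0.09, 0.33, -0.14 and -0.10. The 6 carriers and channels for ADP, ATP and phosphate had 1 higher and 5 lower means and medians of -0.09, -0.09, 0.20, -0.19 and -0.05. These lists share no gene with the subunits, and the medians of all 4 were above 0 in 45D3 and below it in the other 4 tumours. The subunits had a median of 0.03 in 66D2, the same as all kept genes, and of 0.04 in 67D3. The complexes were not alike in 67D3, with medians of 0.08 for complex I, -0.14 for II, 0.11 for III, -0.03 for IV and -0.02 for V.

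Of 11 kept regulators of mitochondrial genes 2 were higher and 9 lower, with medians of -0.10, -0.07, -0.05, -0.02 and -0.20 in 66D2, 67D3, 45D3, 49I1 and 51I1. Pprc1, a coactivator of NRF-1 related to PGC-1, averaged 7.88 ± 0.15 in final and 8.27 ± 0.24 in basal samples (SD, n = 5 each) and was lower in all 5 tumours by 0.06 to 0.72 (mean difference -0.39, adjusted p = 0.579 in limma). Nrf1 differed by -0.14, Gabpa by -0.01, Gabpb1 by 0.1 and Yy1 by -0.08, genes of the 3 factors whose motifs are printed above. Tfam, which packs mitochondrial DNA and activates its transcription, differed by -0.13, with 0.33 in 45D3 and -0.47 in 49I1. Ppargc1a, the gene of PGC-1 alpha, was dim.

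**Figure D5:**
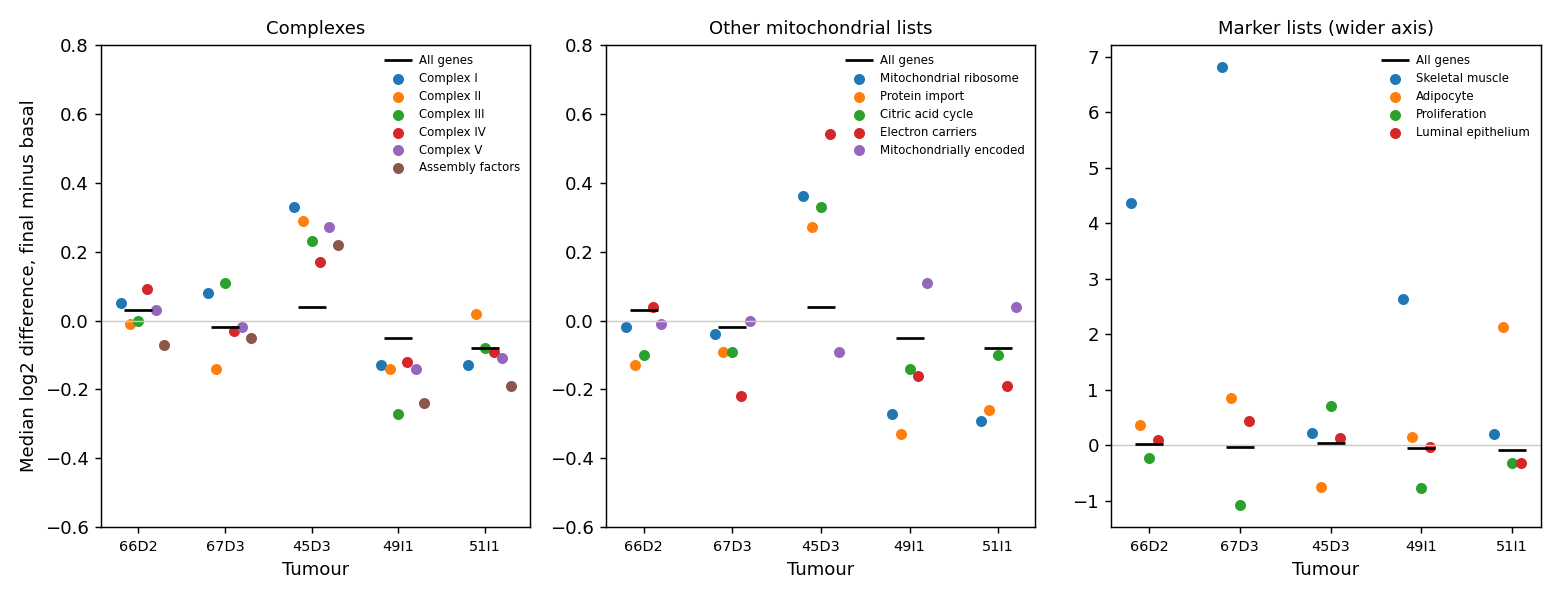
Median log2 difference, final minus basal, of gene groups (colours) in each tumour (horizontal axis): complexes and assembly factors, other mitochondrial lists, and marker lists on a wider axis. Black dashes show the median of all kept genes, from -0.08 to 0.04. Complexes I to V lie between 0.17 and 0.33 in 45D3 and between -0.27 and -0.12 in 49I1, and the muscle list lies at 6.82 in 67D3.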

How the data were processed

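Per the labels, biotin-labelled RNA of 10 tumour samples was read on Affymetrix rat arrays. The authors normalised the intensities by RMA, per the series' design text and the submitters' processing notes, with no version recorded in those notes. From their range, the deposited values were taken to be log2 signals. Since RMA gives all arrays 1 distribution, a change in a cell's total RNA does not show. The table held 31099 probe sets, 57 of them controls, and the platform annotation gave 20826 exactly 1 symbol, 436 several and 9780 none. The dimmest 40% (mean below 5.14) were left out, leaving 18625. Final minus basal was fitted over these with limma 3.58.1 in R 4.3.3 with tumour as a block, because each pair carries 1 tumour identifier in the labels. Deviations of same-tumour arrays correlated at 0.30 on average, between -0.16 in 45D3 and 0.72 in 66D2 (across probe sets, which are not independent). Precision is limited by the number of arrays, which have no read depth. The script was tested on simulated data. No column of values was left unused. Sequences and positions came from RefSeq GRCr8, in which all 88 genes were found.

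The genes, lists and tests were chosen with earlier results of these data known, and the roles of the genes were assigned by hand, Ndufa4 and Ndufa4l2 to complex IV. Named genes were core subunits and isoforms whatever their values, up to 3 genes of smallest p in each complex, genes that moved 1 way in all 5 tumours, and up to 4 of each list. Ndufab1, Ndufb10, Ndufaf1, Atp5if1, Cox7a2l and Gabpb1 were chosen after their values were seen. Alternatives were no block, a random block, no filter on dim probe sets or a stricter one, centring, quantile normalization, the mean of a gene's probe sets, muscle and hexokinase covariates, each tumour left out, and the methods' t-test, and, added after seeing the data, 45D3 and 67D3 left out together and Ndufa4 counted in complex I.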

Additional observations from a re-analysis of the deposited data

Results flagged for a closer look

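Cox4i2, the lung and low-oxygen form of Cox4, stood apart in 1 of the final samples. Its signal was 6.86 in 66D2, against 4.82 to 5.33 in the other 4 final samples, and the gap made up 0.747 of the range of the group, above Dixon's critical value of 0.71 for 5 samples. The basal sample of 66D2 was also the highest of its group, at 7.04, and both lay below the mean of BioB, 7.97. Among 64 groups of 5 samples tested this was the only one, and chance gives about 1 in 20.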

How the results depend on the processing

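No gene of the 85 passed an adjusted p of 0.05 in any setting run, and the median difference of all 85 moved by less than the SD of the tumours' medians in each, between -0.09 (hexokinase covariate) and 0.06 (without 49I1). The count of genes lower at an unadjusted p under 0.05, 2 as reported, was 1 with no replicate block, under the random block, under the stricter filter (dimmest 60% out) and by the methods' t-test, 0 with the muscle covariate, and 1 to 6 when tumours were left out one at a time (6 without 45D3, where 10.7% of all kept genes were, and 1 without each of the others). It was 3 without 45D3 and 67D3. The count of higher genes, 0, was 1 with the methods' t-test. The block changed no other call. The small number of tumours limits what could be detected, and 8 of the 85 genes had a mean below that of BioB.

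Of 509 values of 32 named genes under the alternatives, 463 kept their sign at 2 decimals or had a value of 0.00 there and 46 changed it, all of differences of 0.14 or less in size. The lowest adjusted p was 0.144 (Ndufaf4 without 45D3). With the hexokinase covariate the differences were -0.12 for Uqcrc1, -0.11 for Ndufs3, -0.09 for Sdhb, -0.08 for Atp5f1c, Cox5b and Sdhaf2, -0.05 for Atp5pd, -0.04 for Atp5pf and Ndufv1, -0.03 for Ndufv2, Sdha and Uqcr10 and -0.02 for Cox6b1. Without 45D3 and 67D3 they were -0.12 for Uqcrc1, -0.10 for Ndufs3, -0.09 for Cox5b, -0.07 for Sdhb, -0.06 for Atp5f1c and Sdhaf2, -0.04 for Atp5pd, -0.03 for Cox6b1 and Uqcr10, -0.02 for Atp5pf and Ndufv1 and -0.01 for Ndufv2. With the muscle covariate they were 0.15 for Ndufs1 and Sdhd, 0.10 for Uqcrc2, 0.08 for Uqcrfs1, 0.04 for Atp5f1b, -0.03 for Cox5b and Uqcrc1 and -0.01 for Cox6b1. Leaving out 1 tumour at a time gave -0.06 to 0.09 for Atp5f1c, -0.01 to 0.09 for Atp5pd, -0.01 to 0.11 for Atp5pf, -0.34 to 0.21 for Ndufa4l2, -0.20 to 0.05 for Ndufs1, -0.03 to 0.13 for Ndufs3, -0.04 to 0.08 for Sdha, -0.03 to 0.09 for Sdhaf2, -0.03 to 0.11 for Sdhb, -0.10 to 0.02 for Sdhd, -0.04 to 0.10 for Uqcrc1, -0.19 to 0.06 for Uqcrfs1 and -0.43 to 0.07 for the pair of Ndufa4l2 and Ndufa4. The cause was not tested.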
